A study of Drosophila melanogaster with 33 samples.

Results

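RNA editing of ion pump and exchanger genes was examined in heads of Drosophila melanogaster through 5 genes. They were chosen by gene symbol, taking every entry of PMCA, Calx, nrv3, Nckx30C or Ndae1 in a table of 1350 edited sites in 395 gene entries. The genes held 36 sites, or 2.67% of the total. PMCA had 19, Nckx30C 6, Calx 5, nrv3 4 and Ndae1 2. Exonic sites numbered 10 and intronic sites 26.

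The enzyme ADAR deaminates adenosine to inosine in double-stranded RNA, and inosine is read as guanosine by the ribosome and in sequencing. Fly ADAR acts largely in the nervous system, where many of its known targets encode ion channels and synaptic proteins. Pumps and exchangers restore the ion gradients that channel currents run down. PMCA encodes the plasma membrane calcium ATPase, which uses ATP to push calcium out of the cell. Calx encodes a sodium/calcium exchanger that clears the calcium entering photoreceptors in light, and Nckx30C encodes an exchanger of the related family that also carries potassium. The product of nrv3 is a beta subunit of the sodium pump, the Na+/K+-ATPase, which sets the sodium gradient both exchangers use. Ndae1 encodes a sodium-driven anion exchanger, which moves bicarbonate inward against chloride and so raises intracellular pH.

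Nascent RNA, which is RNA still being transcribed on chromatin, came from yw (yellow white) flies at 6 times of day in 12 libraries, 6 in each of 2 replicate sets, and from males of yw, FM7a and ADAR0 with 2 libraries each. Polyadenylated mRNA came from yw flies in 2 libraries and from Canton S flies in 12 libraries, and 1 library held yw genomic DNA. All flies were 3 to 4 days old and had been kept in cycles of 12 hours of light and 12 hours of dark. The yw flies of the 12 nascent libraries are called light:dark flies below, although the males had the same light cycle. Each male library was a small-scale preparation of 40 to 45 heads. The labels give no sex for the other RNA libraries. FM7a is the name of an X chromosome balancer, and ADAR0 denotes loss of the X-linked gene for the editing enzyme; the labels give no further genotype. The genomic DNA is labelled as head, while its protocol describes whole flies.

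An editing level is the percent of reads that carry the edited base at a site. The deposited level of each group is 1 value pooled over its libraries. Read depth in RNA is unknown, so no interval or detection limit can be given. A level averages over all head cells that transcribe the gene, and a change in which cells contribute cannot be told apart from a change of editing within cells. Positions are those of the deposited table on the dm3 build, and the table does not say if counting starts at 0 or 1. Sites are numbered within each gene in order of position. Genomic DNA covered the 36 sites with 18 to 66 reads.

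The sole measure of replicate error was the difference between the nascent sets. It does not cover the male or mRNA pools, for which no replicate spread is given. At the 36 sites the median difference was 3 percentage points and the SD of 1 level was 3.99 points, against 4.61 points over all 1350 sites. The sets differed by more than 10 points at 2 of 36 sites, beside 11% of all sites. Both were in PMCA. Set 1 was depleted of ribosomal RNA per the labels, so this spread also holds a difference in preparation.

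**Figure D1:**
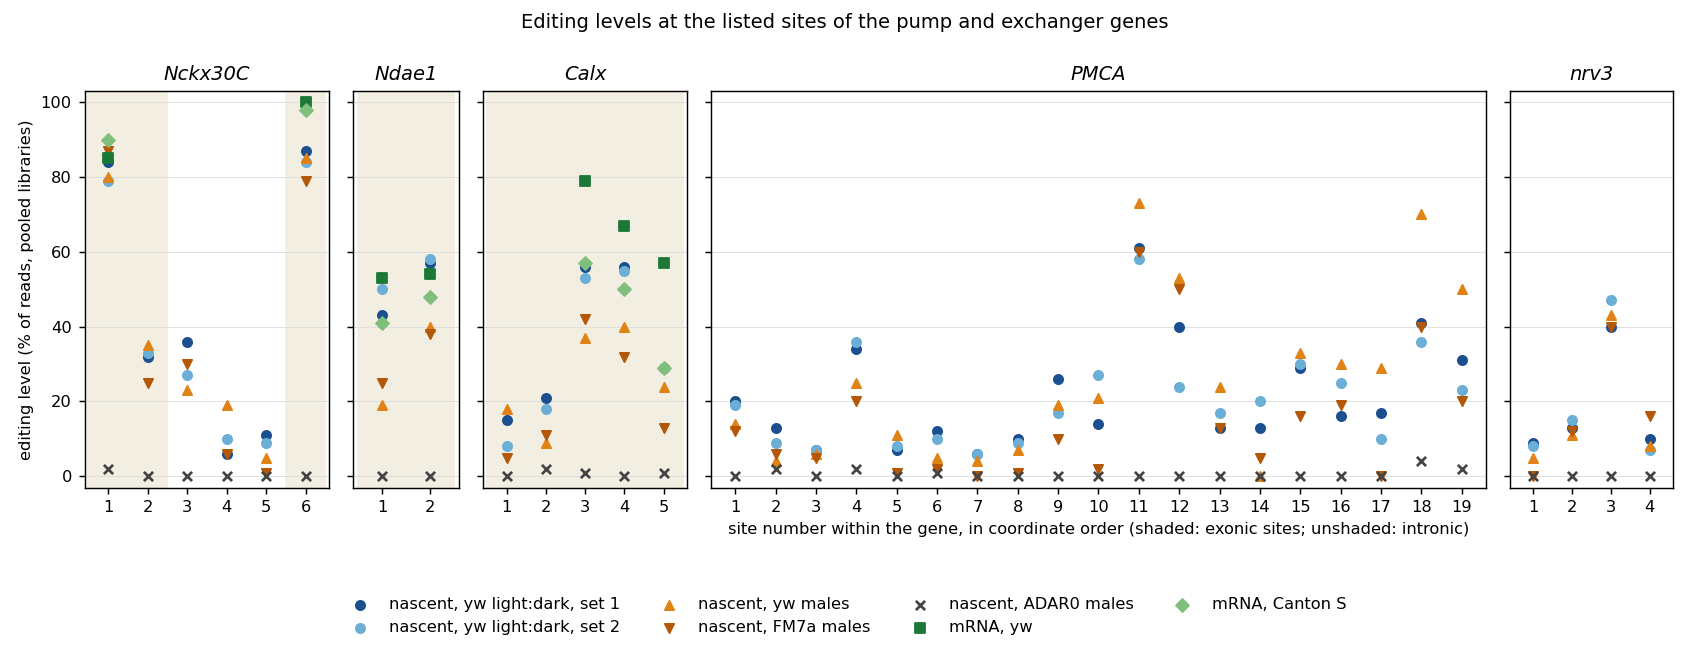
Editing level in percent of reads at each of the 36 sites, by gene and site number, with 1 symbol for each pooled value: nascent RNA of yw flies in light:dark cycles (2 sets), of yw, FM7a and ADAR0 males, and mRNA of yw and Canton S. Equal values overlap. ADAR0 males lie between 0% and 4% at all 36 sites, and the highest levels, in exons of Nckx30C, reach 100% in yw mRNA.

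Levels at these sites were at or near 0 in flies without ADAR. In ADAR0 males 27 of 36 sites (75%) were listed at 0, a lower share than the 88.1% of all sites. By gene this was 14 of 19 in PMCA, 5 of 6 in Nckx30C, 2 of 5 in Calx, 4 of 4 in nrv3 and 2 of 2 in Ndae1. The other 9 of the 36 sites were at 1% to 4%, and the highest was PMCA site 18. The ADAR0 level was below the FM7a level at 33 of 36 sites, beside 79.6% of all sites. The other 3 were PMCA sites 7 and 17 and nrv3 site 1, all listed at 0 in both strains. With yw males as the control, ADAR0 was lower at 35 of 36 sites, beside 86.7% of all sites. No site of the 5 genes resembled the few in the table that stay high without the enzyme, the highest of which was listed at 100%. These counts carry no test, since each strain has 1 pooled value.

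The exchanger gene Nckx30C held the highest levels of the 5 genes, and they lay in exons. Site 6 (chromosome 2L, position 9733349, exonic) was at 87% and 84% in the nascent sets, 100% in yw mRNA and 98% in mRNA of Canton S. Males were at 85% in yw, 79% in FM7a and 0% in ADAR0. Both mRNA pools were above every nascent value, which placed this site close to complete editing in mRNA of both strains.

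Site 1 of Nckx30C (position 9717614, exonic) was at 84% and 79% in the nascent sets, 85% in yw mRNA and 90% in mRNA of Canton S. Males were at 80% in yw, 87% in FM7a and 2% in ADAR0. The yw mRNA lay 1 point above set 1, which is within the spread between the sets. Only 93 bases further on, the exonic site 2 (position 9717707) was at 32% and 33% in the sets, with males at 35% in yw, 25% in FM7a and 0% in ADAR0, and had no mRNA level. Exonic sites this close therefore differed by 49 points in the pool of all 12 nascent libraries (82% and 33%), far more than the set SD of 3.99 points.

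The 3 intronic sites of Nckx30C were lower. Site 3 (position 9724082) was at 36% and 27% in the sets, site 4 (position 9725854) at 6% and 10%, and site 5 (position 9732445) at 11% and 9%. In yw males they were at 23%, 19% and 5%, and in FM7a males at 30%, 6% and 1%. Nckx30C was the one gene of the 5 with sites in exons and introns. Its exonic median exceeded its intronic median by 72 points in the 12 nascent libraries (82% and 10%), by 73 in set 1, 69 in set 2 and 61 in yw males. The exonic site 2 and the intronic site 3 nevertheless had nearly the same level (33% and 32%). Over all sites of the table the exonic and intronic medians were 27% and 18%.

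All 5 sites of Calx were exonic, on chromosome 3R, and 4 of them lay within 237 bases. Site 3 (position 16819460) was at 56% and 53% in the nascent sets, 79% in yw mRNA and 57% in mRNA of Canton S. Males were at 37% in yw, 42% in FM7a and 1% in ADAR0. The yw mRNA stood 24 points above the all-nascent level of 55% and the Canton S mRNA 2 points above it, the latter within the spread between sets.

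Site 4 of Calx (position 16819563) was at 56% and 55% in the sets, 67% in yw mRNA and 50% in mRNA of Canton S, with males at 40%, 32% and 0% in yw, FM7a and ADAR0. Here the mRNA pools fell on opposite sides of the nascent sets. Site 5 (position 16819575), 12 bases away, was at 29% in both sets, 57% in yw mRNA and 29% in mRNA of Canton S, with males at 24%, 13% and 1%. Canton S mRNA equalled nascent RNA there while yw mRNA was 28 points higher.

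The remaining Calx sites had no mRNA level. Site 2 (position 16819338) was at 21% and 18% in the sets, with males at 9% in yw, 11% in FM7a and 2% in ADAR0. Site 1 (position 16804638), the lowest of the gene, was at 15% and 8%, with males at 18% in yw, 5% in FM7a and 0% in ADAR0. It was the one Calx site where yw males were above both sets. At the other 4, both control male pools lay below both sets. Over all sites of the table, yw males were below both sets at 62.6% and FM7a males at 75.6%.

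The anion exchanger gene Ndae1 had 2 exonic sites on chromosome 2L. Site 1 (position 7228779) was at 43% and 50% in the nascent sets, 53% in yw mRNA and 41% in mRNA of Canton S, with males at 19% in yw, 25% in FM7a and 0% in ADAR0. Site 2 (position 7230012) was at 57% and 58% in the sets, 54% in yw mRNA and 48% in mRNA of Canton S, with males at 40%, 38% and 0%. Site 2 was the one site of the 5 genes at which both mRNA pools lay below both nascent sets. There the yw mRNA (54%) was below set 1 (57%) by less than the set SD. At both sites the control males lay below the light:dark flies by 18 to 27 points. The set SD comes from the light:dark sets and holds no error of the male pools. Males were also lower over the 257 listed sites with an mRNA level, with median differences from the all-nascent level of -10 points in yw and -11 points in FM7a. The difference between male and light:dark preparations was not tested.

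The study set editing during transcription beside editing of mature mRNA, and 7 of the 36 sites, all exonic, carried both values. The mean of the mRNA pools was above the all-nascent level at 6 of 7, beside 72.4% of the 257 sites in the table with an mRNA level. At Ndae1 site 1 and Calx site 4 it was above by 1 and 2.5 points, less than the set SD. The median difference was 5.5 points, against 5 points over the 257. Nascent levels were between 67.4% (Calx site 5) and 97.9% (Ndae1 site 1) of the mRNA mean at the 6 sites, and 114% at Ndae1 site 2. Both mRNA pools were above both sets at 3 sites (Nckx30C sites 1 and 6 and Calx site 3), beside 39.3% of the 257, and both below at 1, beside 8.95%. At Nckx30C site 1 and Calx site 3 the lower mRNA pool (85% and 57%) was above set 1 (84% and 56%) by less than the set SD. These shares were near those of all sites.

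The direction differed between the mRNA pools at Calx site 4 and Ndae1 site 1. The yw mRNA alone was above the all-nascent level at 6 of 7 sites, beside 68.9% of the 257. Canton S mRNA alone was above it at 3 of 7, beside 61.9%, namely Nckx30C sites 1 and 6 and Calx site 3. The yw level exceeded the Canton S level at 6 of 7 sites, beside 63% of the 257, by 2 to 28 points, and the exception was Nckx30C site 1. At Calx site 4 and Ndae1 site 1, 2 of the 7, the yw mRNA was above and the Canton S mRNA below both nascent sets, beside 10.1% of the 257. At Ndae1 site 1 each mRNA level lay past the sets by less than the set SD of 3.99 points. The strain, the number of libraries and the sampling times differ together between these pools and cannot be told apart, and no replicate error is given for either.

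**Figure D2:**
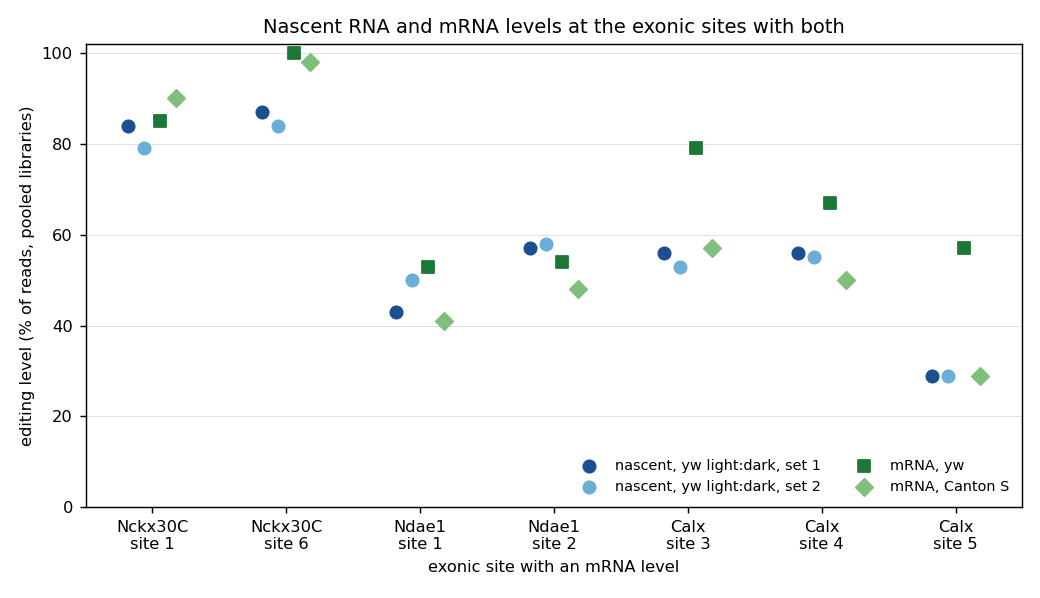
Editing level in percent of reads at the 7 exonic sites with an mRNA level, as the 2 nascent sets (circles), yw mRNA (squares) and Canton S mRNA (diamonds), each 1 pooled value. Both mRNA pools stand above both sets at Nckx30C sites 1 and 6 and Calx site 3, and below both at Ndae1 site 2. At Nckx30C site 1 and Calx site 3 the lower mRNA pool clears set 1 by less than the set SD. At Calx site 5 Canton S mRNA equals the sets at 29%, with yw mRNA at 57%.

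PMCA had the most sites of the 5 genes, and all 19 were intronic, on chromosome 4. Their all-nascent levels ran from 6% to 59% with a median of 19%, against 18% for all 729 intronic sites. They lay in stretches on either side of a gap of 9006 bases. The first stretch (positions 359701 to 368331) held sites 1 to 10 with a median of 11%, and the second (377337 to 378348) held sites 11 to 19 with a median of 26%.

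The highest PMCA site was site 11 (position 377337), at 61% and 58% in the sets, with males at 73% in yw, 60% in FM7a and 0% in ADAR0. It ranked first among the 19 in every one of these control pools. Site 18 (position 378347) was at 41% and 36% in the sets, with males at 70% in yw, 40% in FM7a and 4% in ADAR0. Site 4 (position 361002), the highest of the first stretch, was at 34% and 36% in the sets, with males at 25% in yw, 20% in FM7a and 2% in ADAR0. The lowest in the all-nascent pool was site 7 (position 361824), at 6% in both sets, 4% in yw males and 0% in FM7a and ADAR0 males.

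The yw males lay mostly above the light:dark flies in the second stretch. In the first they lay below them at a share near that of the whole table. In the second stretch yw males were above both nascent sets at 8 of 9 sites, with a median excess of 14 points over the all-nascent level. The exception was site 14 (position 378247), at 13% and 20% in the sets and listed at 0 in yw males. These 9 sites lie within 1011 bases and share transcripts, so they are not independent observations. In the first stretch yw males were below both sets at 7 of 10 sites (70%) and above both at 1, site 5. The median difference of -2 points was smaller than the set SD of 3.99 points. Sites 3, 7 and 8 were 1 to 2 points below the all-nascent level. Over all sites of the table, yw males were above both sets at 20.7% and below both at 62.6%. On chromosome 4 outside PMCA they were above both sets at 28 of 105 sites, or 26.7%.

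Sites with large excesses in yw males were site 18 (70% against 38% in the all-nascent pool), site 19 (50% against 26%, position 378348), site 12 (53% against 32%, position 377349) and site 17 (29% against 13%, position 378299). The sets themselves were at 40% and 24% at site 12, the larger of the PMCA differences beyond 10 points; the other was site 10 (position 368331), at 14% and 27%. FM7a males did not show the same excess. They were above both sets at 1 of 9 sites of the second stretch, site 12, and below both at 4. In the first stretch they were below both sets at 10 of 10 sites. Over all sites, FM7a males were above both sets at 11.3% and below both at 75.6%. The stretches were set apart after the values were seen, and their difference was not tested.

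**Figure D3:**
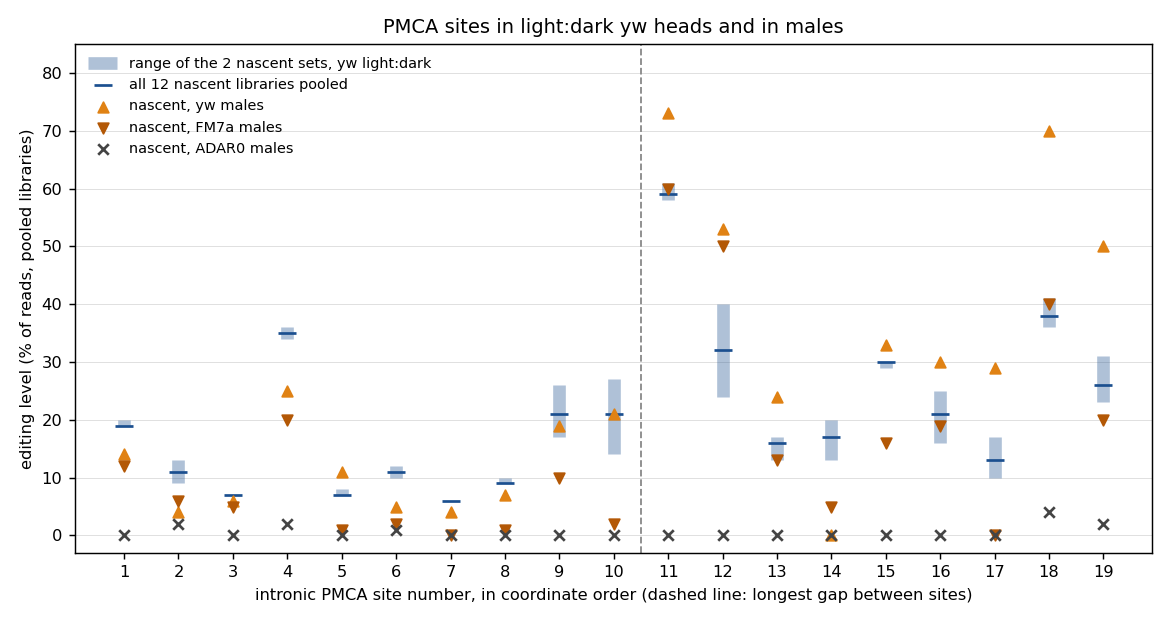
Editing level in percent of reads at the 19 intronic PMCA sites in coordinate order, with bars for the range of the 2 nascent sets, a dash for the pool of 12 nascent libraries, and 1 pooled value each for yw, FM7a and ADAR0 males. To the right of the dashed line (sites 11 to 19) yw males lie above the bars at 8 of 9 sites, beside 20.7% of all listed sites. To the left they lie below at 7 of 10, near the 62.6% of all listed sites.

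Between the control male strains, yw was above FM7a at 17 of 19 PMCA sites and at 27 of 36 sites of the 5 genes, beside 57.9% of all sites. The median difference was 9 points in PMCA and 5 points over the 36 sites, against 2 points over the table. Outside PMCA the count was 4 of 6 in Nckx30C, 3 of 5 in Calx, 2 of 4 in nrv3 and 1 of 2 in Ndae1. The yw level was above and the FM7a level below both nascent sets at 6 of the 36 sites (16.7%), near the 12.5% of all sites. Of the 6, 4 were in PMCA. Strain and library pool cannot be told apart here, because each strain has 1 value. Sites of the same gene share transcripts and are not replicates, which holds for all counts of sites given here.

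The beta subunit gene nrv3 had 4 intronic sites on chromosome 2L, 3 of them within 51 bases. Site 3 (position 21383403) was at 40% and 47% in the sets, with males at 43% in yw, 40% in FM7a and 0% in ADAR0. It was the highest nrv3 site in every control pool. Site 2 (position 21383360), 43 bases before it, was at 13% and 15%, with males at 11%, 12% and 0%. Site 1 (position 21383353) was at 9% and 8%, with males at 5%, 0% and 0%. Site 4 (position 21384334) had the lowest pooled level and was at 10% and 7%, with males at 8%, 16% and 0%. The higher FM7a value at site 4 was 8 points above the all-nascent level and lay above both sets.

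**Figure D4:**
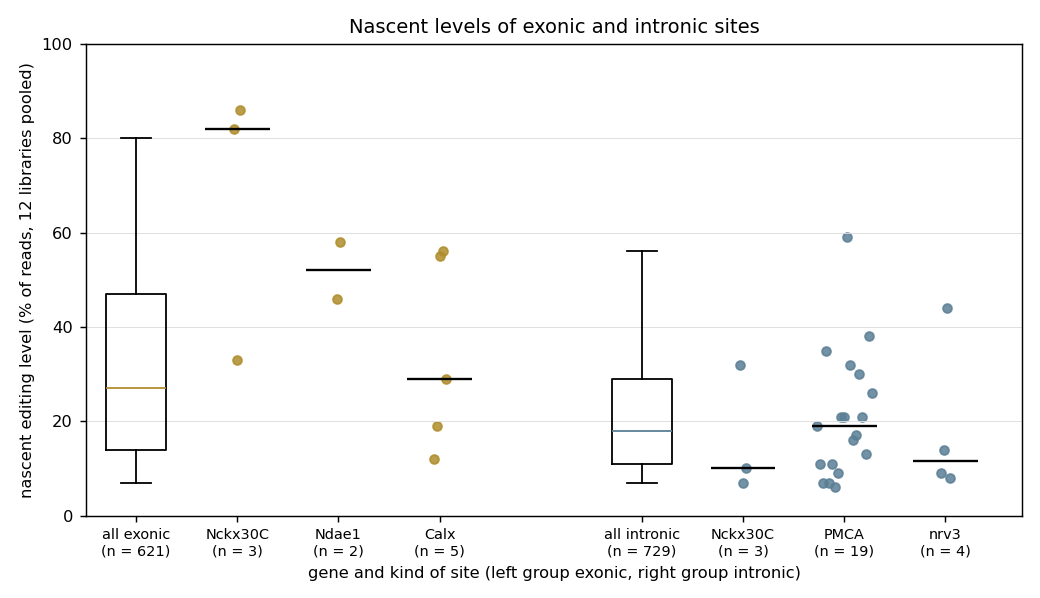
Nascent editing level in percent of reads (12 libraries pooled) for each site of the 5 genes, with exonic sites on the left and intronic on the right; black lines are gene medians, and boxes show the quartiles and the 5th to 95th percentile of all 621 exonic and 729 intronic sites. The exonic sites of Nckx30C have a median of 82% and its intronic sites 10%, and PMCA and nrv3 appear among the intronic sites alone.

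Ordered by the median level of all their sites in the 12 nascent libraries, Ndae1 stood at 52%, Nckx30C at 32.5%, Calx at 29%, PMCA at 19% and nrv3 at 11.5%. The medians of the 2 sets were 50% and 54%, 34% and 30%, 29% and 29%, 16% and 19%, and 11.5% and 11.5% in the same order. Nckx30C and Calx were 3.5 points apart in light:dark flies, 5 in yw males and 14.5 in FM7a males, with Nckx30C higher in each. The gap in light:dark flies was less than the set SD of a single level, which understates the error of a difference. No replicate error is given for the male pools. Ndae1 and Nckx30C were 19.5 points apart in light:dark flies, 0.5 in yw males and 4 in FM7a males. Calx and PMCA were 10 points apart in light:dark flies and 3 in each of these male pools. PMCA was 7.5 points above nrv3 in light:dark flies and 11.5 in yw males, but in FM7a males nrv3 was 4 points above PMCA. The kind of site differs between the genes, with intronic sites alone in PMCA and nrv3 and exonic sites alone in Calx and Ndae1. Within 1 kind the order was another. Exonic medians were 82% in Nckx30C, 52% in Ndae1 and 29% in Calx. Intronic medians were 19% in PMCA, 11.5% in nrv3 and 10% in Nckx30C. The part of the kind of site in the order was not tested.

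Many sites, mostly in PMCA, lay close to another site of the same gene. With sites joined when at most 100 bases apart, 24 of the 36 sites fell into 8 groups. Of all listed sites, 50.1% had such a neighbour. Of the 8 groups, 5 were in PMCA and held 17 of its 19 sites. The others held 2 of 6 sites in Nckx30C, 2 of 5 in Calx and 3 of 4 in nrv3, with none in Ndae1. Levels within a group were unequal, from 16% to 59% among PMCA sites 11 to 13 and from 9% to 44% among nrv3 sites 1 to 3. PMCA sites 18 and 19 lay at adjacent positions. The former was higher in every control pool, with 41% and 31% in set 1, 36% and 23% in set 2, 70% and 50% in yw males and 40% and 20% in FM7a males. At the other adjacent pair, sites 2 and 3 (positions 359721 and 359722), the levels were 13% and 7% in set 1 and 9% and 7% in set 2, 4% and 6% in yw males and 6% and 5% in FM7a males. Their difference in set 2 was within the set SD, and those in the males were no larger than in set 2. The set SD is that of 1 level and understates the error of a difference. The set 1 difference therefore cannot be called beyond error, and the male pools have no replicate error.

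Steadiness over single libraries is given by a deposited 5th percentile, taken by the authors across the 12 nascent libraries. At Nckx30C site 6 it was 81%, against a pooled level of 86%, and at Ndae1 site 2 it was 51% against 58%. At PMCA site 11 it was 37% against 59%, and at PMCA site 15 (position 378252) 7% against 30%. It was 0% at 2 of the 36 sites, PMCA sites 7 and 17, and at 104 of the 1350. The median shortfall below the pooled level was 10 points for the 36 sites and 11 points for all. The authors marked each site they found in every one of the 4 control male libraries. All 10 exonic sites of the 5 genes and 11 of their 26 intronic sites had this mark, beside 60.2% of all exonic and 32.2% of all intronic sites. In total this was 21 of 36, beside 45.1% of all sites. A site of low level is easily missed at low depth, and depth is unknown.

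Editing in other pumps and transporters was counted over 45 genes named for this purpose. Of these, 8 had a listed site, with 12 sites between them, 10 exonic and 2 intronic, at nascent levels of 6% to 78%. Atpalpha, the catalytic alpha subunit that pairs with beta subunits such as nrv3, had 2 exonic sites on chromosome 3R. The first (position 16790050) was at 22% in both sets, 29% in yw mRNA and 26% in mRNA of Canton S, and the second (position 16790761) at 28% and 24%, 29% and 26%. In control males they were at 16% to 22%, and in ADAR0 males at 0%.

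CG1090, which encodes a predicted potassium-dependent sodium/calcium exchanger like Nckx30C, had 3 exonic sites and 1 intronic site on chromosome 3R. Its exonic site at position 191107 was at 81% and 76% in the sets, 84% in yw mRNA and 91% in mRNA of Canton S, while the adjacent position 191106 was at 37% and 31%, 53% and 52%. The exonic site at position 191196 was at 34% and 31%, 53% and 53%, and the intronic site at position 186638 at 13% in both sets. As in Nckx30C, the highest level lay in an exon and an exonic neighbour was far lower.

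The remaining listed genes had 1 site each. Nhe2 and Nhe3, which encode sodium/proton exchangers, were at 48% (intronic) and 27% (exonic) in the all-nascent pool. The chloride channel gene ClC-a was at 23%, the flippase family member CG31729 at 14%, the proton pump subunit gene Vha26 at 6% and the potassium/chloride cotransporter gene kcc at 6%, all exonic. At kcc the ADAR0 level was 6%, above FM7a males at 5%. It was the one site of the 12 not at 0 in ADAR0 males. The mean mRNA level was above the all-nascent level at all 7 of the 12 sites with an mRNA level, beside the 72.4% given above for the 257 sites. Both mRNA pools were above both sets at 5 of the 7, beside 39.3%.

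Genes with 3 or more sites were compared with the members by their median level in 5 nascent pools, the 2 sets and the 3 male strains, over 113 other genes. The gene closest to Nckx30C was CG1090, with a mean absolute difference of 1.5 points, followed by the potassium channel gene Shab at 2.3 points. Calx was closest to the channel gene NaCP60E at 1.4 points and CG31635 at 2.6. PMCA was closest to CG42540 at 1.6 points and CG16791 at 1.7, and nrv3 to the active zone gene Rim at 1.1 and to Mob2 at 1.3. These genes were picked for the smallest differences among the 113, so the values are small by construction. Medians of few sites carry little detail. Ndae1, with 2 sites, was not compared.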

How the data were processed

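The authors deposited editing levels as fractions of reads with the edited base, rounded to hundredths and, per the file headers, pooled over the libraries of each group. Here they are given as percent, that is times 100. The authors also deposited a 5th percentile over the 12 nascent libraries and the count of yw genomic DNA reads over each site. The submitters' processing notes name the dm3 build, TopHat, and CASAVA 1.6 or, for male libraries, 1.8. The calling of sites is not described, and RNA read depth is unknown. Where 1 mRNA level is used, it averages the 2 strains without weights.

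No test was run, since each group has 1 pooled value. Counts of sites are set beside the share over all sites with the values needed. The SD of a level is the root of the mean squared difference between the sets divided by 2. All sites of the 5 genes were included, and some PMCA sites are given by range and count alone. Other transporters came from a fixed list whose 45 genes all matched the RefSeq gene table of Release 6, used for names. The members and lists were chosen with earlier results of these data known. On simulated data, the rules for both mRNA pools above or below both sets, the SD and the grouping of close sites were tested. The other counting rules were not tested in this way. Python 3.11.15 and pandas 2.3.3 were used. No reference sequence was used.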

Additional observations from a re-analysis of the deposited data

Results flagged for a closer look

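The difference between mRNA and nascent RNA had opposite signs in the 2 mRNA strains, beyond both nascent sets, at 2 of 7 sites. The share was 10.1% of the 257 sites with an mRNA level, and this opposition was not tested. The yw level exceeded the Canton S level by 17 points at Calx site 4 and by 12 points at Ndae1 site 1. At Ndae1 site 1 each mRNA level lay past the sets by less than the set SD. Likewise, yw males were above and FM7a males below both nascent sets at 6 of 36 sites, or 16.7%. This was near the 12.5% of all sites and was also not tested. The difference was 13 points at Calx site 1, 10 points at Nckx30C site 2, and 10, 17, 29 and 30 points at PMCA sites 5, 15, 17 and 19. Some of these levels lay past the sets by less than the set SD of 3.99 points. This held for both strains at Calx site 1, for yw at Nckx30C site 2 and PMCA sites 5 and 15, and for FM7a at PMCA site 19. FM7a was listed at 0 at PMCA site 17, and the number of reads behind that value is unknown.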

How the results depend on the processing

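Of 37 alternative values, 25 stayed within the size limits (3.99 points, or 1.5 times a count). The limits say little with 1 value per pool, and depth limits every level by an unknown amount. With FM7a males the median level was 27.5% for Nckx30C, 31.5% for Ndae1, 13% for Calx and 10% for PMCA. With yw males it was 29.5% for Ndae1 and 24% for Calx, and the exonic excess of Nckx30C was 61 points. The cause was not tested. Limiting to sites found in all control male libraries, which drops sites by construction, gave medians of 57.5% for Nckx30C, 26% for PMCA and 44% for nrv3 (1 site), and 21 sites lower in ADAR0. With Canton S mRNA alone, 3 sites were higher in mRNA.

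Leaving out either nascent set gave medians of 30% to 34% for Nckx30C, 50% to 54% for Ndae1, 29% for Calx, 16% to 19% for PMCA and 11.5% for nrv3. It gave 5 to 6 sites higher in mRNA and an exonic excess of 69 to 73 points in Nckx30C. No paired analysis was possible because each column pools its replicates.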
